A study of Mus musculus with 6 samples.

Results

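Small nucleolar RNAs (snoRNAs) were examined in immortal mouse melanocytes, the pigment-producing cells of skin and hair. The members are all genes whose symbol is Snord or Snora followed by a digit and that had a probe set assigned to that symbol alone. There were 73 of them among 22180 measured genes, 47 of the C/D box class (Snord) and 26 of the H/ACA box class (Snora). The 73 genes were covered by 75 such probe sets, and for Snora19 and Snora33, which had more than 1, the probe set brightest on average across the 6 arrays was taken.

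The series compared a line heterozygous for Sox10 LacZ (Sox10 LacZ/+, called heterozygous here; 3 arrays), in which a LacZ insertion disrupts 1 copy of this neural crest transcription factor, with the line melan-Ink4a-Arf-1, which is wild type at Sox10 (3 arrays). Both lines lack Ink4a-Arf (Cdkn2a) on a background backcrossed to C57BL/6J, and both grew in 10% serum with cholera toxin at 200 pM and a phorbol ester at 200 nM. Mice aged 3 days gave rise to the heterozygous cells; no age is labelled for the wild-type line. Each genotype is 1 line, so genotype and line cannot be told apart, and the titles number the replicates without saying whether they were separate cultures, so p-values measure the spread between these arrays, which may be technical. In these bulk cultures, less RNA per cell and fewer cells of a type cannot be told apart. The array medians lay between 5.72 and 5.78 on the log2 scale and no pair of arrays was identical (0 pairs). Sox10 itself had 9.70, 9.70 and 9.79 in the heterozygous arrays, against 9.98, 9.80 and 9.95 in the wild-type arrays, without overlap, and its difference of −0.18 did not pass (limma adjusted p = 0.213); whether its probes lie in the part the LacZ insertion replaces is not given here, so this does not check the labels. Of 8 melanocyte markers, 1 was higher and 2 were lower in the heterozygous line, with a mean log2 signal of 11.48 to 11.53 in heterozygous cells and 11.69 to 11.89 in the wild-type arrays. Of 6 fibroblast markers, 3 were higher and 0 lower, with a mean log2 signal of 7.34 to 7.42 in heterozygous cells and 5.48 to 5.64 in the wild-type arrays; whether this bears on any snoRNA was not tested.

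snoRNAs are short RNAs of the nucleolus that base-pair with other RNAs and direct their chemical modification. C/D box RNAs guide ribose methylation by fibrillarin and H/ACA box RNAs guide pseudouridine formation by dyskerin, mostly on ribosomal RNA, and a few take part in cutting the ribosomal RNA precursor instead. In mammals most lie in introns of host genes and are released from the spliced intron, so the host's mature transcript and the snoRNA are separate products of 1 precursor. Transcripts of many snoRNA hosts, those of ribosomal proteins among them, begin with a tract of pyrimidines.

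For 70 of the 73 members the RefSeq annotation (GRCm38.p6) placed the gene inside another gene, and Snord13, Snord89 and Snord118 had no such host. The 70 lay in 56 distinct host genes, 42 protein-coding and 14 noncoding. Ribosomal protein genes made up 16 of the hosts and held 18 members. The annotated length was 48 to 221 bases in the C/D class (median 68) and 56 to 205 bases in the H/ACA class (median 118.5). The members were spread over 20 chromosomes.

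No table used here holds the snoRNA sequences themselves. The starts of the host genes of the members whose signal differed between the lines are therefore shown. Each runs from 30 bases before to 20 bases from a start in a list of promoters (GRCm38.p6, transcribed strand, 5′ to 3′). The promoter nearest the gene's annotated start was taken, and the 2 need not coincide. On the minus strand, the annotated starts of Rc3h2 (37424370) and Kansl2 (98534770) lie outside their windows. On the plus strand, those of Nop56 (130274367) and Nop58 (59684961) also lie outside theirs, whereas that of Rpl4 (64173387) lies inside. Capitals mark runs of at least 5 pyrimidines (C or T) that reach within 10 bases of the start, searched on the transcribed strand only. The hosts are Rpl4 (holds Snord16a; chr9:64173357-64173406, plus strand), Nop56 (Snord110; chr2:130274382-130274431, plus), Snhg16 (Snord1b; chr11:116671630-116671679, plus), Nop58 (Snord70; chr1:59684976-59685025, plus), Rc3h2 (Snord90; chr2:37422884-37422933, minus) and Kansl2 (Snora2b; chr15:98534250-98534299, minus). Rpl3, host of Snord83b, and Rpl32, host of Snora7a, are named only.
Rpl4: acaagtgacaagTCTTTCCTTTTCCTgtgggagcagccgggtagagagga
Nop56: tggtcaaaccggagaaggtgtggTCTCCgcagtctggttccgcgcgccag
Snhg16: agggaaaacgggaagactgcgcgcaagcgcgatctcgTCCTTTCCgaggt
Nop58: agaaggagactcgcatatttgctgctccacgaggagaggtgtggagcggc
Rc3h2: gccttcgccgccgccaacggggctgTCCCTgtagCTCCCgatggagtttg
Kansl2: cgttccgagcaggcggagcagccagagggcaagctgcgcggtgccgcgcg

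Such a run was present in 4 of these 6 starts, in 25 of the 44 host starts in the table (56.8%) and in 14735 of all 32851 promoters in the table (44.9%). The run in Rpl4 was 14 bases long, and those in Nop56 and Rc3h2 were 5. A match is a description of the letters in this window only.

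Of the 73 members, 8 (11.0%) passed, meaning a limma p below 0.05 after Benjamini-Hochberg adjustment across all genes, against 13.4% of all genes. In the C/D class 5 members were higher and 1 was lower in the heterozygous line, 6 of 47 (12.8%). In the H/ACA class 2 were higher and 0 lower, 2 of 26 (7.69%). Over all genes 7.46% were higher and 5.92% lower, so the members' share lay near the background. At an unadjusted p below 0.05, 21 members passed (C/D 13 higher and 2 lower, H/ACA 3 higher and 3 lower), against 24.9% of all genes. No overlap between the 2 lines' arrays was seen for 20 members (27.4%), against 31.6% of all genes. A difference of at least 2-fold on top of the adjusted p was met by 2 members, both C/D, against 3.53% of all genes.

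1 array stood apart for this class of RNA and touches every value that follows. In wild-type replicate 2, 62 of the 73 members (84.9%) lay below the mean of wild-type replicates 1 and 3, against 49.7% of all genes. They lay more than 0.5 below it on the log2 scale in 27 members (37.0%), against 3.74% of all genes, and at least 1 below it in 8 members, against 0.757%. The median deviation was −0.40 in the C/D class and −0.36 in the H/ACA class, against 0.001 over all genes. Wild-type replicate 2 was the lowest of the 6 arrays for 46 members (63.0%; 32 C/D and 14 H/ACA), against 20.8% of all genes. No other array had more than 2 members lying over 0.5 below the other arrays of its line. The median SD per member was 0.09 in heterozygous cells and 0.27 in the wild-type line, against 0.08 and 0.12 over all genes. Results are therefore given with and without wild-type replicate 2.

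**Figure D1:**
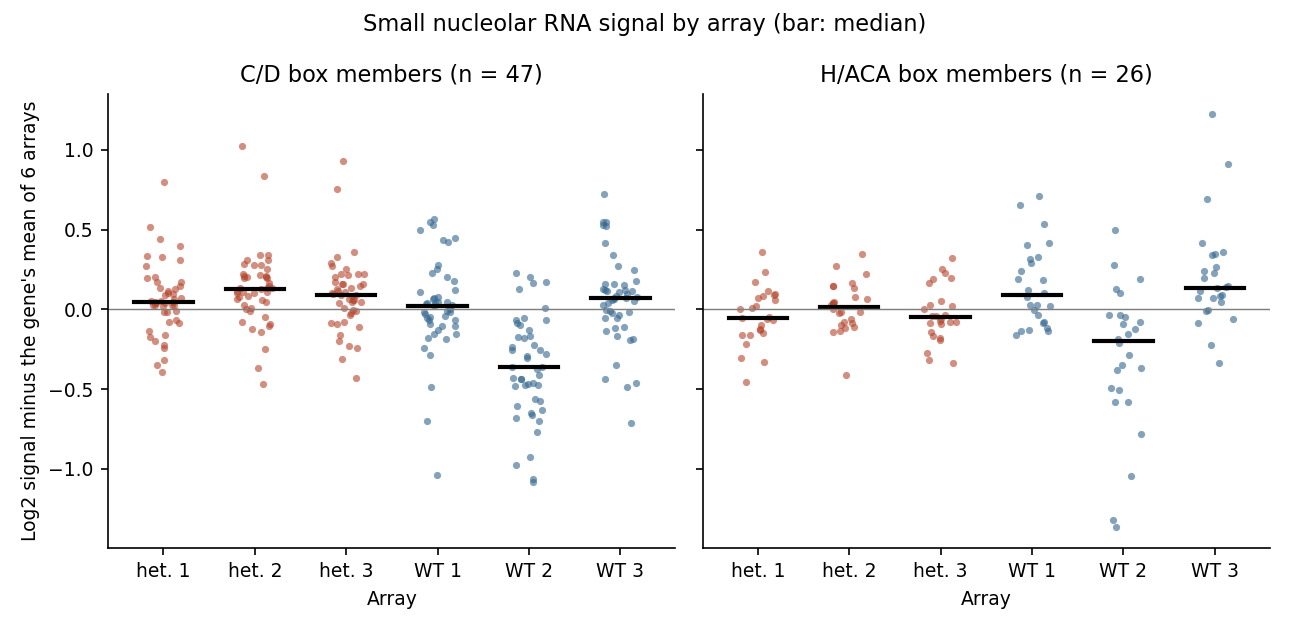
Log2 signal of each member minus that member's mean over the 6 arrays (vertical axis) in each array (horizontal axis), for 47 C/D members (left) and 26 H/ACA members (right); each point is a gene and the bar is the median. The median of wild-type replicate 2 lies at −0.36 in the C/D and −0.20 in the H/ACA panel, and the other 5 arrays lie between −0.05 and 0.14.

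The largest such deviations were in H/ACA members. Snora20, within the chaperonin subunit gene Tcp1, had 6.34, 6.32 and 6.30 in the heterozygous arrays, against 7.0, 5.15 and 7.69 in the wild-type arrays. Snora15, within the chaperonin subunit gene Cct6a, had 6.60, 6.78 and 6.76 in the heterozygous arrays, against 6.92, 5.15 and 6.86 in the wild-type arrays. In both, wild-type replicate 2 lay below and the other wild-type arrays above all heterozygous arrays. Wild-type replicate 2 deviated from replicates 1 and 3 by −2.20 for Snora20, −1.75 for Snora74a and −1.74 for Snora15, and in the C/D class by −1.44 for Snord99, −1.28 for Snord37 and −1.15 for Snord72. It lay above the mean of replicates 1 and 3 for 11 members, and above each of them for 9, among them Snora28 (0.57), Snord88c (0.47) and Snora68 (0.37).

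The host transcripts did not share this deviation. Over the 43 measured hosts the median deviation of wild-type replicate 2 was 0.07. The host of Snora20, Tcp1, deviated by 0.19, the host of Snora74a, Snhg4, by 0.09 and the host of Snora15, Cct6a, by 0.04. Across the 57 members with a measured host, the deviation of the snoRNA and that of its host had Pearson's r of −0.03 and Spearman's rho of −0.08, given as a description over genes that share the same arrays. Across all 73 members the deviation and the annotated length had r of 0.03 and rho of 0.06. Most other short RNAs on the lists lay the same way as the members: 10 of 12 were lower in wild-type replicate 2 than in the mean of replicates 1 and 3. These were 4 of 5 small Cajal body RNAs, which guide modification of spliceosomal RNAs, and 6 of 7 others, among them the RNase P RNA Rpph1 (−0.80) and the U3 RNA gene Rnu3a (−0.62). The telomerase RNA Terc (0.80) and Scarna6 (0.36) were higher there. The median deviation was smaller than in the members: −0.15 for the small Cajal body RNAs and −0.07 for the others, against −0.38.

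The C/D members were shifted slightly upward in the heterozygous line. Of 47, 34 had a difference (heterozygous minus wild type) above 0 and the median was 0.19, with quartiles of −0.04 and 0.33 and a range of −0.61 to 1.59. Of the 26 H/ACA members, 13 had a difference above 0 and the median was −0.01, with quartiles of −0.24 and 0.10 and a range of −0.71 to 0.55. Over all genes the median was 0.001 and 50.4% lay above 0. Without wild-type replicate 2 the median was 0.05 in the C/D class (28 above 0), −0.15 in the H/ACA class (9 above 0) and 0.002 over all genes, and 12 members (8 C/D and 4 H/ACA) changed sign. The C/D median stood 0.19 above the H/ACA median with all arrays and 0.20 above it without that array, and this gap between the classes was not tested. Of the 12 members with a mean below 5.20 (the level that 40% of probe sets do not reach), 11 were C/D and 1 was H/ACA.

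**Figure D2:**
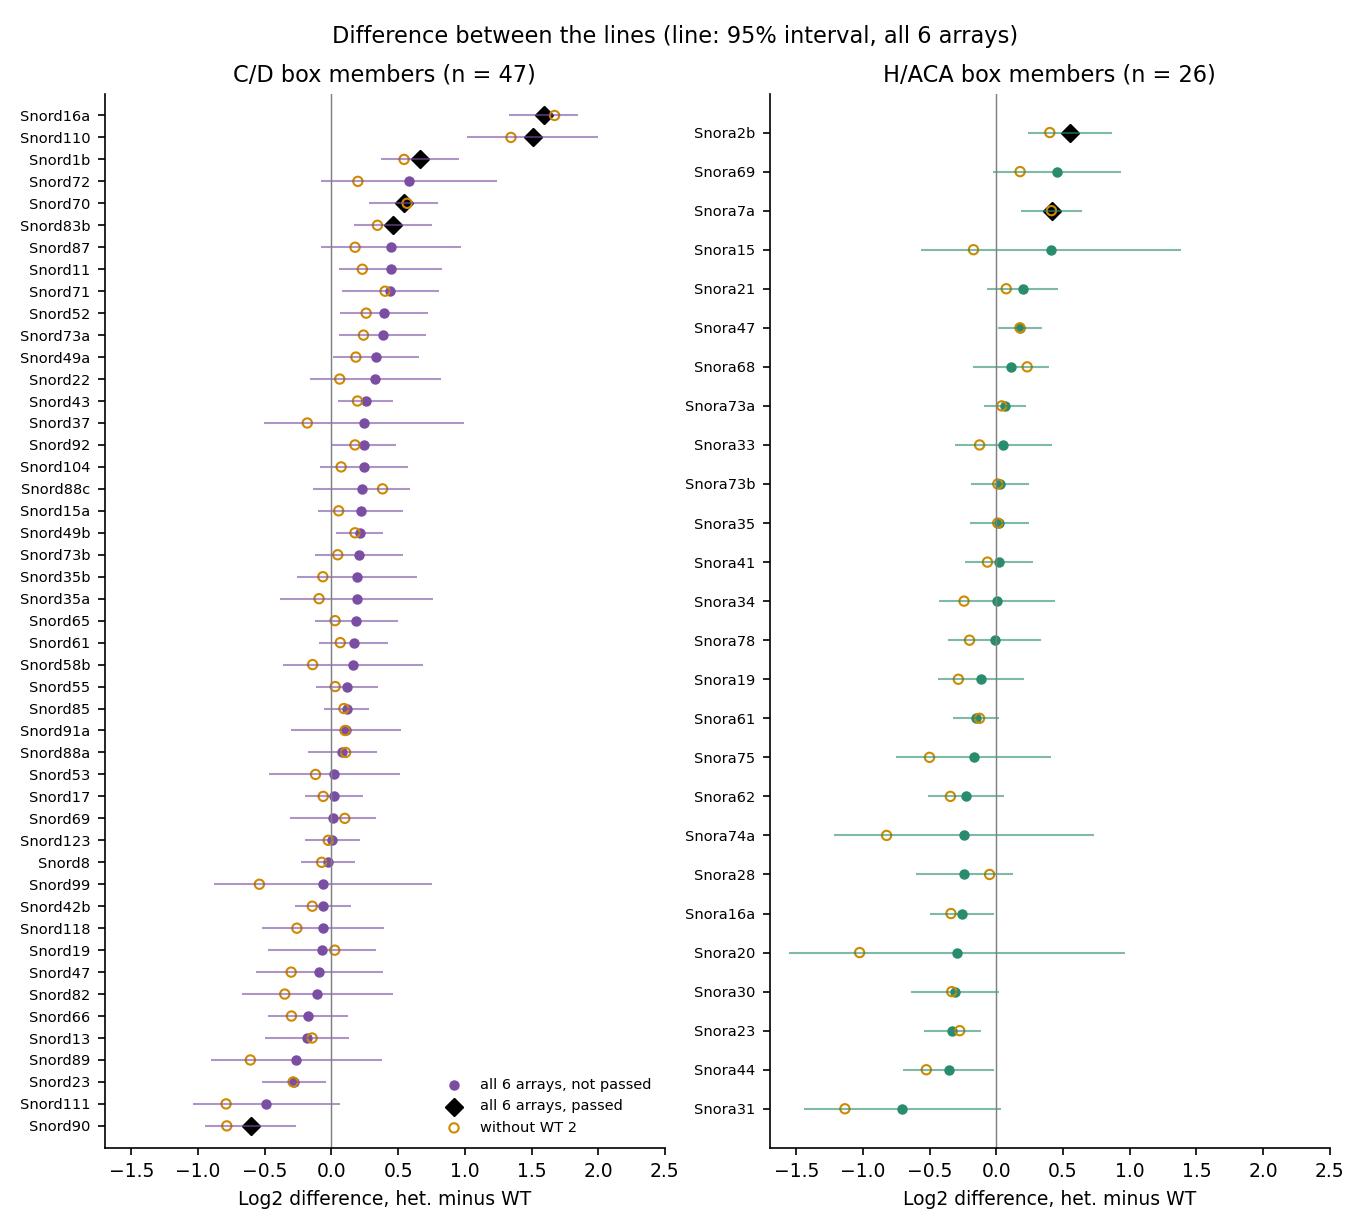
Log2 difference, heterozygous minus wild type (horizontal axis), of each of the 47 C/D members (left) and 26 H/ACA members (right), with its 95% confidence interval from limma; filled symbols use all 6 arrays, diamonds mark the 8 members that passed, and open circles leave out wild-type replicate 2. Snord16a and Snord110 lie at 1.59 and 1.51, and most open circles lie left of their filled symbols.

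Snord16a, a C/D RNA whose human counterpart guides methylation of the small-subunit ribosomal RNA, had the largest difference of the members. Its probe set (Entrez gene 100217453, chr9:64175432-64175522) gave 10.52, 10.56 and 10.48 in the heterozygous arrays, against 8.69, 9.10 and 9.01 in the wild-type arrays. All heterozygous arrays lay above all wild-type arrays. The means were 10.52 ± 0.04 and 8.93 ± 0.22 (SD, n = 3 each), a log2 difference of 1.59 (SE 0.11, 95% interval 1.33 to 1.85), or 3.01-fold higher (limma adjusted p = 4.84e-05). Without wild-type replicate 2, which was the highest wild-type array here, the difference was 1.67. Its host Rpl4 encodes a protein of the large ribosomal subunit. The longest of the pyrimidine runs shown above lies upstream of the Rpl4 start. Rpl4 averaged 12.32 ± 0.04 in heterozygous cells and 12.32 ± 0.07 in the wild-type line. The Rpl4 difference was −0.001 (limma adjusted p = 0.994), with a 95% interval of −0.17 to 0.17, and its sign turned under 8 of 15 alternatives, which spanned −0.04 to 0.19.

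Snord110 lies in an intron of Nop56, which encodes a core protein of the C/D particles themselves, and its human counterpart also guides methylation of the small-subunit ribosomal RNA. Its probe set (Entrez gene 100217452, chr2:130275515-130275573) gave 6.03, 6.75 and 6.65 in the heterozygous arrays, against 5.03, 4.64 and 5.24 in the wild-type arrays. The groups did not overlap, with heterozygous replicate 1 the lowest of its line. The means were 6.48 ± 0.39 and 4.97 ± 0.30 (SD, n = 3 each), a log2 difference of 1.51 (SE 0.21, 95% interval 1.02 to 2.0; limma adjusted p = 0.00245), and 1.35 without wild-type replicate 2. The wild-type mean of Snord110 lay below 5.20. Nop56 rose as well, by 0.44 (SE 0.08, limma adjusted p = 0.00722), with 11.26 ± 0.05 in heterozygous cells and 10.83 ± 0.08 in wild-type cells (SD, n = 3 each). With its dimmest probe set Nop56 did not pass (0.59, limma adjusted p = 0.192). In a fit of every probe set, one shared by Snord57 and Nop56 had 0.20 and did not pass (limma adjusted p = 0.755). Its wild-type replicate 2 deviated by −0.94 from replicates 1 and 3.

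Of the other C/D members that were higher, Snord1b, within the noncoding gene Snhg16 and with a human counterpart that guides methylation of the large-subunit ribosomal RNA, had 5.53, 5.22 and 5.29 in the heterozygous arrays, against 4.78, 4.45 and 4.83 in the wild-type arrays. Its groups did not overlap and its difference was 0.66 (SE 0.13, limma adjusted p = 0.0114), with a wild-type mean below 5.20. Snord1b has near copies, Snord1a and Snord1c, and a pair of probe sets shared by Snord1c and Snord1b had differences of 0.47 and 0.50 that did not pass (limma adjusted p of 0.113 and 0.125). Snord70, within the C/D core protein gene Nop58, had 4.46, 4.34 and 4.19 in the heterozygous arrays, against 3.93, 3.84 and 3.59 in the wild-type arrays. Its groups did not overlap and its difference was 0.54 (SE 0.11, limma adjusted p = 0.0154), although its mean lay below 5.20 in both lines. It did not pass without heterozygous replicate 1 (0.48, limma adjusted p = 0.0692) or replicate 2 (0.54, 0.0629). Its host Nop58 had a difference of 0.22 that did not pass (limma adjusted p = 0.135).

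Snord83b, within the large-subunit protein gene Rpl3, had 7.18, 7.41 and 7.49 in the heterozygous arrays, against 7.04, 6.66 and 6.99 in the wild-type arrays. The groups did not overlap, but heterozygous replicate 1 and wild-type replicate 1 were close. The difference of 0.46 (SE 0.13, limma adjusted p = 0.0483) was near the threshold, and it did not pass when any one array was left out. Without wild-type replicate 2 it was 0.34 (limma adjusted p = 0.0589, range over all alternatives 0.0303 to 0.172). Rpl3 was higher by 0.49 (SE 0.13, limma adjusted p = 0.0439), with 11.61 ± 0.09 in heterozygous cells and 11.12 ± 0.25 in wild-type cells (SD, n = 3 each), a call that ended without any one array other than wild-type replicate 2 (limma adjusted p of 0.109 to 0.158) and reversed to −0.02 with its dimmest probe set. Snord90, within the Roquin paralogue gene Rc3h2, was the member that fell. It had 3.54, 3.65 and 3.58 in the heterozygous arrays, against 4.31, 3.84 and 4.44 in the wild-type arrays, with no overlap and a low signal in both lines. Its difference was −0.61 (SE 0.15, limma adjusted p = 0.0324), and −0.79 without wild-type replicate 2. Leaving out any one of the other 5 arrays ended the call, with differences of −0.63 to −0.48 and limma adjusted p of 0.0888 to 0.117.

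**Figure D3:**
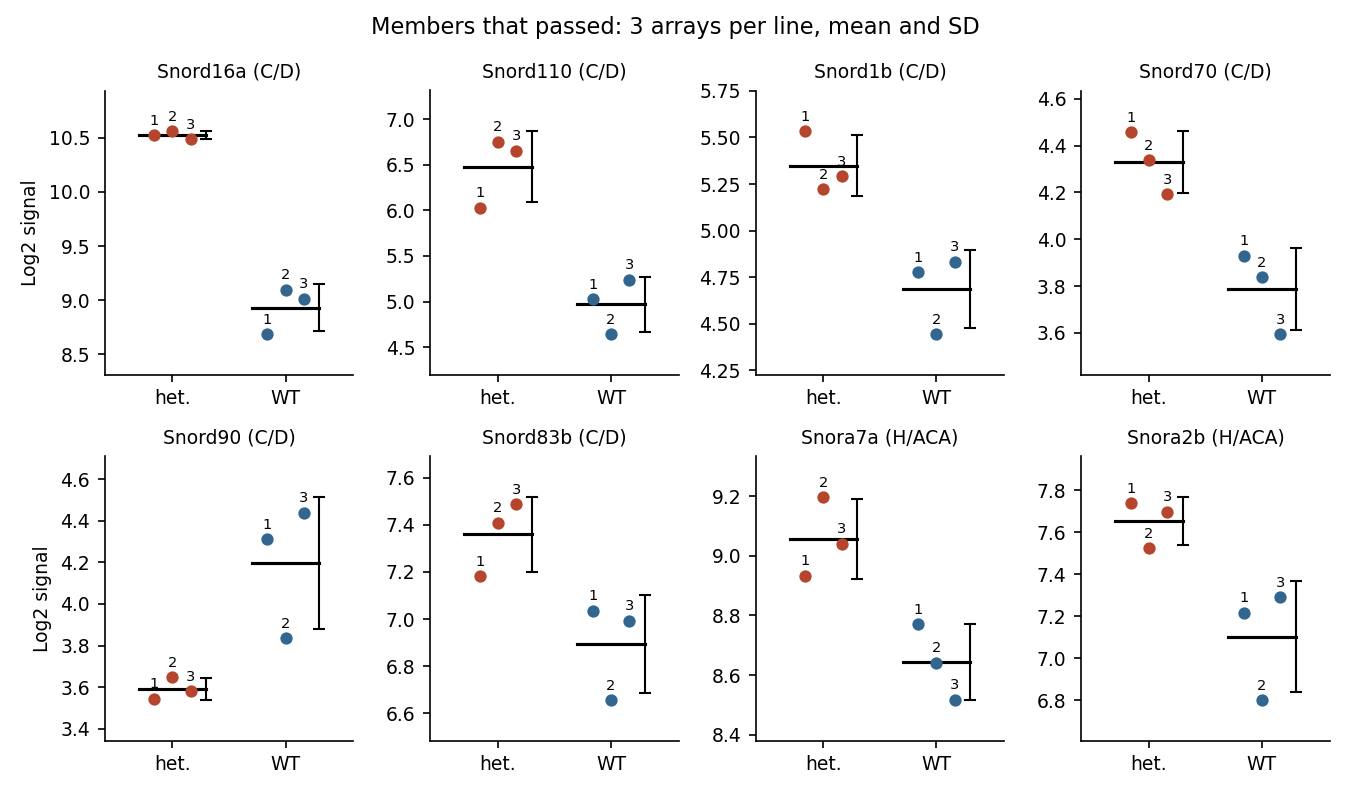
Log2 signal (vertical axis; each panel has its own scale, which does not start at 0) of the 8 members that passed, in the 3 heterozygous and 3 wild-type arrays, numbered by replicate; the horizontal bar is the mean and the error bar the SD. The lines do not overlap in any of the 8 panels, and wild-type replicate 2 is the lowest wild-type array in 5 of them.

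In the H/ACA class, Snora7a lies in the large-subunit protein gene Rpl32, and its human counterpart guides pseudouridine formation in the large-subunit ribosomal RNA. It had 8.93, 9.20 and 9.04 in the heterozygous arrays, against 8.77, 8.64 and 8.52 in the wild-type arrays. The groups did not overlap and the difference was 0.41 (SE 0.10, limma adjusted p = 0.0309). Snora7a was the only member on chromosome 6, whose 1201 measured genes had a median difference of 0.08, and the part of that shift in its value was not tested. The call ended without wild-type replicate 3 (0.35, limma adjusted p = 0.0881), heterozygous replicate 2 (0.34, 0.119) or heterozygous replicate 3 (0.42, 0.0979). Snora2b, within Kansl2, a gene for a subunit of a histone acetyltransferase complex, had 7.74, 7.53 and 7.70 in the heterozygous arrays, against 7.22, 6.80 and 7.29 in the wild-type arrays. Its groups did not overlap, and its difference was 0.55 (SE 0.14, limma adjusted p = 0.0328), against 0.40 without wild-type replicate 2. It did not pass without wild-type replicate 1 or without any one heterozygous array (0.51 to 0.62, limma adjusted p of 0.0622 to 0.122). Next in rank was Snora23, within the importin gene Ipo7, which had 9.31, 9.51 and 9.54 in the heterozygous arrays, against 9.73, 9.90 and 9.73 in the wild-type arrays. Its difference of −0.33 (SE 0.09) did not pass (limma adjusted p = 0.053), although it did with dim genes left out (0.0368) and with an intensity trend in eBayes (0.0365).

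Without wild-type replicate 2, 17 members passed (23.3%), against 19.0% of all genes (10.4% higher and 8.63% lower). Of the 8 members that passed with all arrays, 7 passed and Snord83b did not. All 10 members that passed in this fit and not with all arrays weighted equally were lower in the heterozygous line, so that the C/D class had 4 higher and 4 lower and the H/ACA class 2 higher and 7 lower (34.6% of the class). The 10 are named because of this outcome, with values seen. In each of the 10, wild-type replicate 2 lay below the mean of replicates 1 and 3 (−0.25 for Snora16a to −2.20 for Snora20). Leaving out an array singled out as low in these RNAs raises their wild-type mean and so lowers the difference. With all arrays the 10 already lay below 0, from −0.06 for Snord99 to −0.71 for Snora31. Leaving out the array made these differences larger in size. It also made each SE smaller, from 0.10 to 0.09 for Snora16a and from 0.55 to 0.18 for Snora20. That the 10 passed in the same direction is therefore no separate evidence. The H/ACA members were Snora31 (−1.14), Snora20 (−1.03), Snora74a (−0.82), Snora44 (−0.53), Snora75 (−0.50), Snora16a (−0.34) and Snora19 (−0.28), and the C/D members were Snord111 (−0.79), Snord89 (−0.61) and Snord99 (−0.54), each as a log2 difference without that array. Snora31, within the translationally controlled protein gene Tpt1, had the largest of these differences: with all arrays its difference was −0.71 (limma adjusted p = 0.223), and without wild-type replicate 2 the limma adjusted p was 2e-04, within a range of 2e-04 to 0.473 over the alternatives. Of the 10, Snora31 (−0.90), Snora44 (−0.46) and Snord111 (−0.64) also passed when all 6 arrays were kept and weighted by limma's array weights (limma adjusted p of 0.0162, 0.0334 and 0.0392). These weights are estimated from the same values, so this fit is no separate evidence. Each weighted difference lay between the one with equal weights and the one without wild-type replicate 2. A call that appears when 1 array is left out rests on the arrays that are kept, here 2 for the wild type. Leaving out any one of the other 5 arrays instead left 3 to 5 C/D and 0 or 1 H/ACA members that passed, with 0 H/ACA members without heterozygous replicate 2 or 3. The number of all genes that passed moved as well. It was 2967 with all arrays and 1768 to 4222 when each array was left out, with 4222 reached without wild-type replicate 2.

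Members that take part in precursor cutting or have another separate role did not pass. Snord118 (U8), needed in vertebrates for maturation of the large-subunit ribosomal RNAs, had a difference of −0.06 (limma adjusted p = 0.89). Snord22 (U22), needed for maturation of the small-subunit RNA, had 0.33 (0.402), and 0.06 without wild-type replicate 2. Snora73a and Snora73b (U17), H/ACA RNAs of precursor processing within the noncoding gene Snhg3, had 0.06 (0.643) and 0.03 (0.897). Snord13 (U13), which guides acetylation of the small-subunit RNA, had −0.18 (0.484). The values in parentheses are limma adjusted p.

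Hosts and snoRNAs were then set side by side. Of 43 measured hosts, 3 were higher (Nop56, Rps3a1 and Rpl3), 0 were lower and 40 did not pass. Over all genes 7.46% were higher and 5.92% lower. The median difference of the hosts was 0.12 and 36 lay above 0, against 0.001 and 50.4% over all genes. When wild-type replicate 2 was left out, 7 hosts rose and 0 fell, with Zbed3 (0.38), Rps12 (0.39), Nop53 (0.38) and Rpl32 (0.54) added. The host median was then 0.14, and 10.4% of all genes were higher and 8.63% lower. Of the 7 members that passed and had a measured host, 2 had a host that passed in the same direction (Snord110 with Nop56 and Snord83b with Rpl3). The hosts of the other 5 did not pass, with differences of −0.001 for Rpl4, 0.22 for Nop58, −0.06 for Rc3h2, 0.33 for Rpl32 and 0.02 for Kansl2. In the other direction, 3 members did not pass although their host did, namely Snord43 in Rpl3 and Snord73a and Snord73b in Rps3a1, whose own difference of 0.34 (limma adjusted p = 0.0369) did not pass without wild-type replicate 3 or any one heterozygous array (limma adjusted p of 0.0539 to 0.146). With its probe sets averaged Rps3a1 had 0.21 (limma adjusted p = 0.139) and with its dimmest probe set 0.09 (0.69). Over the 57 pairs the signs matched in 36 and differed in 21, and the differences had r of 0.38 and rho of 0.42 across genes (0.36 and 0.40 without wild-type replicate 2), a description over pairs that share arrays and in part hosts.

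**Figure D4:**
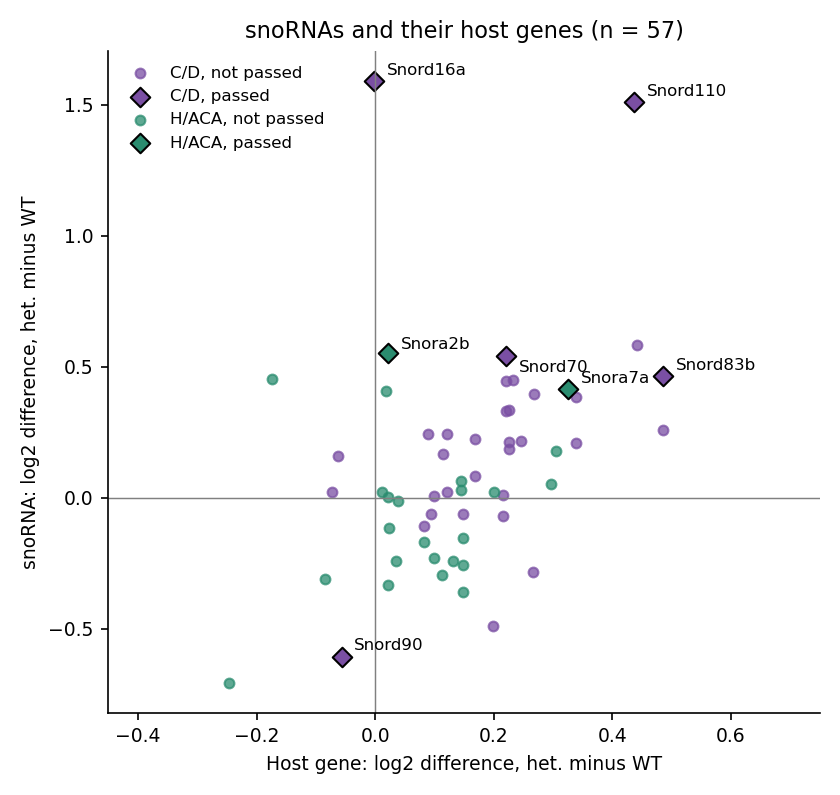
Log2 difference, heterozygous minus wild type, of the host gene (horizontal axis) and of the snoRNA (vertical axis) for the 57 members with a measured host; colours give the class and diamonds the 7 members that passed. Snord16a sits at 1.59 above a host difference of −0.001, whereas Snord110 sits at 1.51 beside a host difference of 0.44.

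The members were also grouped by kind of host, and these groups were not tested against each other. Over all genes 50.4% lay above 0, 7.46% were higher and 5.92% lower. Without wild-type replicate 2, 10.4% of all genes were higher and 8.63% lower. Of the 18 members within ribosomal protein genes, 16 had a difference above 0, with a median of 0.20. Among these 18, 3 were higher and 0 lower (Snord16a, Snord83b and Snora7a). Without wild-type replicate 2 their median was 0.06, 12 of 18 lay above 0, and 2 were higher and 0 lower. Of 32 members within other protein-coding genes, 19 lay above 0, with a median of 0.02, and 3 were higher and 1 lower, and without wild-type replicate 2 the median was −0.06, 14 lay above 0, and 3 were higher and 6 lower. Of 20 members within noncoding hosts, 12 lay above 0, with a median of 0.05, and 1 was higher (Snord1b) and 0 lower, and without that array the median was 0.02, 11 lay above 0, and 1 was higher and 4 lower. The 3 members without a host lay below 0, with a median of −0.18, and of −0.26 without that array, when 1 (Snord89) was lower.

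There were 11 hosts with more than 1 member, and they held 25 members in all. Snhg12, a noncoding gene that carries 4 members, had differences below 0 for all 4, with −0.36 for Snora44, −0.26 for Snora16a, −0.15 for Snora61 and −0.06 for Snord99, against 0.15 for the host itself, and none passed (0 of 4). With wild-type replicate 2 left out they were −0.53, −0.34, −0.13 and −0.54, and Snora44, Snora16a and Snord99 passed, as given above. The pair in Nop58 had 0.54 for Snord70 and 0.44 for Snord11, of which only Snord70 passed, and 0.57 and 0.23 without wild-type replicate 2. The pair in Kansl2 had 0.55 for Snora2b and 0.002 for Snora34, and 0.40 and −0.24 without that array. The 3 RNAs of 2410006H16Rik had 0.34 (Snord49a), 0.21 (Snord49b) and 0.19 (Snord65) beside a host difference of 0.23, and none passed (0 of 3). Without that array they had 0.18, 0.18 and 0.03.

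**Figure D5:**
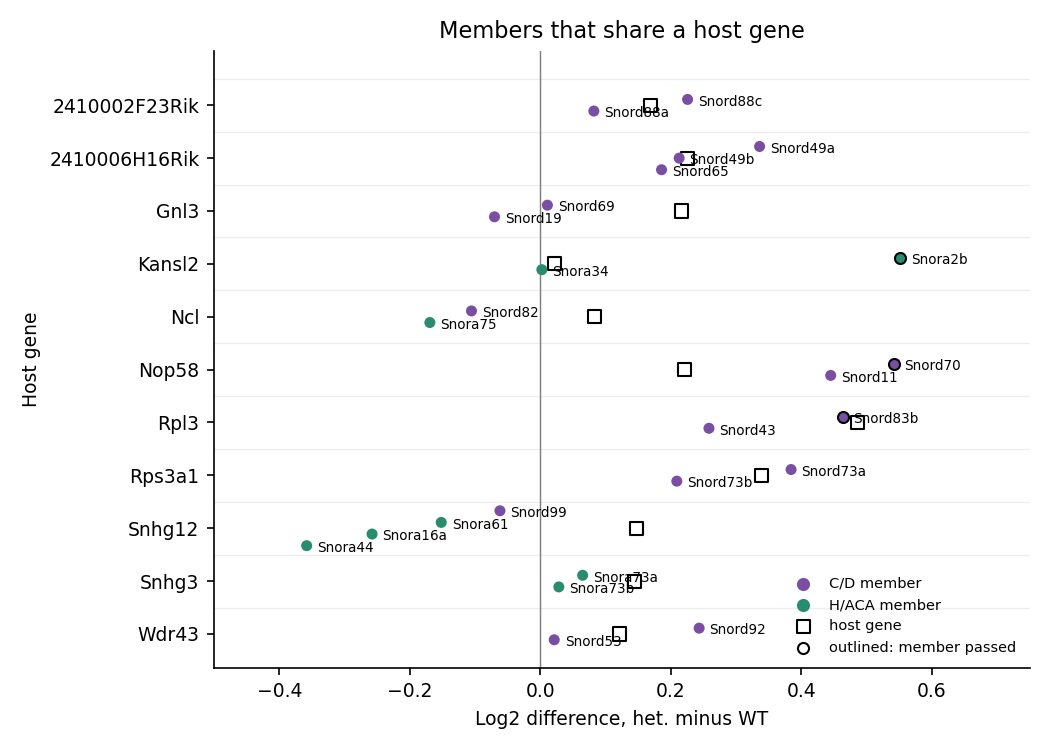
Log2 difference, heterozygous minus wild type (horizontal axis), of members that share a host gene (points, coloured by class) and of the host (open square) for 11 hosts; black outlines mark members that passed. The 4 members of Snhg12 lie left of 0 and their host lies at 0.15, and the members of Kansl2 lie 0.55 apart.

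The proteins that bind these RNAs were taken as a list. Of the C/D core, 3 of 4 genes were measured (the methyltransferase gene Fbl was not measured on a probe set of its own), and 1 rose: Nop56, given above. Nop58 had 0.22 and Snu13, whose protein binds the kink-turn of C/D RNAs, had 0.17 (limma adjusted p = 0.214). Of the 4 H/ACA core genes, Nhp2 rose by 0.54 (SE 0.12, limma adjusted p = 0.0195), with 8.83 ± 0.06 in heterozygous cells and 8.29 ± 0.23 in wild-type cells (SD, n = 3 each), and did not pass without wild-type replicate 1 or any one heterozygous array (0.51 to 0.57, limma adjusted p of 0.0568 to 0.083). The pseudouridine synthase gene Dkc1 had 0.19 (limma adjusted p = 0.374), Nop10 had 0.07 and Gar1 had 0.01, and these did not pass. Of 19 measured assembly and maturation factors of 21 listed, 3 rose and 0 fell (7.46% and 5.92% over all genes), with a median of 0.14. These were Ruvbl1 (0.81, SE 0.11, limma adjusted p = 0.0018), an ATPase of the complex that assembles both classes, Shq1 (0.53, adjusted p = 0.0419), a chaperone of dyskerin, and Znhit3 (0.36, adjusted p = 0.0283), a factor of C/D assembly. Leaving out any one array other than wild-type replicate 2 ended the calls of Shq1 (limma adjusted p of 0.117 to 0.132) and Znhit3 (limma adjusted p of 0.0504 to 0.118), and 7 of the 19 rose without wild-type replicate 2. Shq1 also did not pass when all 6 arrays were kept and quantile normalized. Ruvbl1 and Shq1 lie on chromosome 6, whose median difference is given above, and the part of that shift in their values was not tested.

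Related RNAs outside the member rule were read in the same fit. Of 5 small Cajal body RNAs, Scarna10, on chromosome 6 like Snora7a, rose by 0.41 (SE 0.09, limma adjusted p = 0.0179) and 4 did not pass; it did not pass without wild-type replicate 3, heterozygous replicate 1 or heterozygous replicate 3 (limma adjusted p of 0.0567 to 0.0851). Of 7 other small noncoding RNA genes measured of 8 listed, 0 rose and 1 fell. This was Terc, the telomerase RNA, which carries an H/ACA domain and is bound by the same core proteins as the Snora members. It had 6.44, 6.08 and 6.68 in the heterozygous arrays, against 8.82, 9.56 and 8.70 in the wild-type arrays, with no overlap. The Terc difference was −2.63 (SE 0.24, limma adjusted p = 0.000214), a drop larger than the difference of any of the 26 Snora members, whose lowest was −0.71. Rnu3a, a gene of the U3 RNA of precursor cutting that carries another symbol, had 0.50 (limma adjusted p = 0.263). Of 15 measured Snhg and Gas5 host transcripts of 16 listed, 2 rose and 0 fell (7.46% and 5.92% over all genes), with a median of 0.15. The 2 were Snhg15 (0.38, limma adjusted p = 0.0309) and Snhg11 (0.34, limma adjusted p = 0.0245). Snhg11 did not pass without any one array other than wild-type replicate 2 (limma adjusted p of 0.0628 to 0.105) and reversed to −0.12 with its dimmest probe set, and Snhg15 did not pass when replicate 1 or 3 of the wild type, or replicate 1 or 2 of the heterozygous line, was left out (limma adjusted p of 0.0567 to 0.11).

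A further 43 probe sets were assigned to a snoRNA together with another symbol and were left out by the member rule. They held 28 distinct sets of values, since the several probe sets assigned to Gm26504, Snord116l1 and Snord116l2 had identical values. For 27 snoRNA symbols there were only probe sets with more than 1 symbol. In a fit of every probe set, 2 of the 28 were higher and 0 lower, one shared by Snord33, Mir5121 and Rpl13a (0.37, limma adjusted p = 0.0421) and one by Snora5c and Tbrg4 (0.49, limma adjusted p = 0.0492), and the signal of a snoRNA and its host cannot be told apart there. For comparison, 7.46% of all genes were higher and 5.92% lower in the main fit, which takes 1 probe set per gene. Of the 28, 22 lay lower in wild-type replicate 2 than in the mean of wild-type replicates 1 and 3.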

How the data were processed

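Gene expression was measured on 6 one-colour Affymetrix arrays of total RNA. The authors deposited log2 values, 1 per probe set and array, and the submitters' processing notes name RMA (background correction, normalisation across arrays and summary of probes) and Partek; no version or setting of either is given. Values were used without further scaling. No depth or detection call goes with them, so the number of arrays limits the precision. Of 41345 probe sets, 23521 carried 1 gene symbol in the platform annotation, 1814 carried several and 16010 were not listed; the brightest probe set per gene left 22180 genes.

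Heterozygous and wild-type arrays were set against each other by a 2-sided limma test (version 3.58.1, R 4.3.3; lmFit, then eBayes; 4 residual and 7.87 total degrees of freedom), tested on simulated data, with Benjamini-Hochberg adjustment over all genes and a threshold of 0.05. Differences are heterozygous minus wild type. Named were members that passed, the H/ACA member next in rank, their hosts, core proteins and members with roles in precursor processing; other passing genes of the lists, and members that passed without wild-type replicate 2, were added with values seen. The host is the shortest annotated gene that spans a snoRNA (6 members lay in more than 1); the table used gives no strand, so the planned strand condition was not applied. Members and lists were chosen with earlier results of these data known. Alternatives were other scalings, probe set choices, filters, variance models, thresholds, a replicate block and leaving out each array; the fit of every probe set was added after the data were seen. Same-numbered arrays of the lines did not deviate together (r of 0.007, 0.016 and −0.004), so no block was used in the main comparison.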

Additional observations from a re-analysis of the deposited data

How the results depend on the processing

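Median centring, quantile normalization and eBayes with trend or robust kept both class counts within 1.5 times and both class medians within the spread between arrays. Of 669 single-gene comparisons over 45 named genes and their alternatives, 557 kept direction and side of the threshold, 68 lost the call, 19 gained it and 25 reversed. At the threshold of 0.05, Snord16a, Snord110, Snord1b, Ruvbl1 and Terc passed under every alternative scaling, probe set, filter, variance model, block and left-out array that gave them a value. The filter on dim genes removes 12 members (11 C/D and 1 H/ACA), among them Snord1b, Snord70, Snord90, Snord13, Snord111 and Snora19. C/D members that passed numbered 3 with dim genes left out (a filter that removes 11 of the 47), 2 at an adjusted p below 0.01, 2 with a 2-fold threshold and 3 to 8 when each array was left out. H/ACA members numbered 4 with array weights, 1 with every probe set, 0 at 0.01, 0 with a 2-fold threshold and 0 to 9 when each array was left out. All genes numbered 1588 at 0.01, 782 with a 2-fold threshold and 1768 to 4222 when each array was left out. The C/D median spanned 0.05 to 0.26 and the H/ACA median −0.15 to 0.065 when each array was left out, and the gap between them 0.19 to 0.25; it was 0.24 with probe sets averaged and 0.25 with the dimmest. With the replicate number as a block, 1 H/ACA member passed in place of 2 (Snora7a was lost, limma adjusted p = 0.058), the C/D count was 6 with Snord83b lost (0.0677) and Snord71 gained (0.0196), Rps3a1, Snhg11 and Snhg15 did not pass (0.0898, 0.0537 and 0.0708), and all genes numbered 2512; the labels give the lines only shared numbers. Rpl4 reversed to 0.027 (centring), 0.010 (quantile), 0.092 (probe sets averaged), 0.19 (dimmest) and 0.029 (array weights), Rpl3 to −0.022 and Snhg11 to −0.12 (dimmest). With each array left out in turn, the differences that crossed 0 spanned −0.036 to 0.035 for Rpl4, −0.024 to 0.062 for Kansl2, −0.037 to 0.080 for Ipo7, −0.060 to 0.058 for Gar1, −0.26 to 0.13 for Snord118, −0.032 to 0.11 for Snora73b, −0.61 to 0.033 for Snord89, −0.54 to 0.18 for Snord99, −0.82 to 0.056 for Snora74a and −1.03 to 0.25 for Snora20. Apart from the smaller sets of arrays or genes, the cause of these changes was not tested.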
